A study of Mus musculus with 49 samples.

Results

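The comparison described here set the neocortex of bigenic rNLS8 mice immunized with peptide 15 (TDP-15) against that of monogenic mice given PBS (ctrl-PBS). Its members were the mice that the sample labels mark as peptide 15 and bigenic, or as PBS and monogenic. They were 29 of the 49 mice with cortical RNAseq, 12 in TDP-15 (5 females and 7 males) and 17 in ctrl-PBS (10 females and 7 males), with 1 library per mouse and no pooling. The background of all mice was mixed C57BL/6J x C3H/HeJ, and all carried the tetO-hTDP43∆NLS allele, which encodes human TDP-43 without a working nuclear localization signal. The bigenic mice were also heterozygous for NEFH-tTa, a transactivator driven by the promoter of a neuronal neurofilament gene that switches the allele on in neurons once doxycycline is withdrawn, and the monogenic mice lacked it. Doxycycline was withdrawn at 25.5 weeks in both groups and tissue was taken 3 weeks later, at 28.5 weeks of age. Every mouse was injected 5 times before and 1 time after this induction, starting at 8 weeks of age. TDP-15 mice received 40 µg of peptide 15, a C-terminal TDP-43 peptide with phosphorylated serines coupled to ovalbumin, together with a CpG oligonucleotide and the Alhydrogel adjuvant, while ctrl-PBS mice received PBS in place of the conjugate. Whether PBS was given with or without the oligonucleotide and the adjuvant is not given in the sources used here. Transgene, peptide, ovalbumin and possibly these additions therefore differ together between both groups and cannot be told apart in this comparison. The remaining mice were bigenic, 10 given PBS (TDP-PBS) and 10 given peptides 10 and 12 (TDP-10+12), and they are used below only where TDP-15 is set against them.

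TDP-43 is a nuclear RNA-binding protein that leaves the nucleus and aggregates in the cytoplasm of neurons in most ALS and in many cases of frontotemporal dementia, and rNLS8 mice copy this shift within weeks. Microglia, the resident macrophages of the brain, and astrocytes respond to neuronal injury with characteristic gene programmes, among them the disease-associated microglial genes, complement, antigen presentation and interferon-stimulated genes. Type I interferons act through the IFNAR receptor, JAK kinases and transcription factors that bind interferon-stimulated response elements (ISRE) in the promoters of its target genes.

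Libraries of both groups were of like depth, with 17775738 to 20557811 counts per mouse in TDP-15 and 19088734 to 20866314 in ctrl-PBS, so that 3 counts correspond to 0.144 to 0.169 CPM. Levels are given as CPM, the usual per-library scale of counts, with each library total adjusted by edgeR's TMM factor, and are not divided by gene length. These factors were slightly higher in TDP-15 (0.988 to 1.06) than in ctrl-PBS (0.929 to 1.0011). Transcripts of the mitochondrial genome made up 11.0 to 14.6% and 11.8 to 15.1% of the counts, respectively. The labelled sex matched Xist and Ddx3y in all 29 mice, and no 2 libraries of a group were copies of each other. Nothing in the sources names a sequencing batch.

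Transcripts of the neocortex differed widely between TDP-15 and ctrl-PBS. Of 18220 genes tested with edgeR's quasi-likelihood test, 8542 passed an adjusted p-value of 0.05 (46.9%), 4312 higher (23.7%) and 4230 lower (23.2%) in TDP-15. Most changes were small, since the median log2 fold change was 0.35 among the genes called higher and −0.32 among those called lower. Over 2-fold changes were found for 520 genes (2.85%), 370 of them higher (2.03%) and 150 lower (0.823%). That number was 908 with DESeq2, 1479 without a filter on low counts and 215 where each of the mice had to reach 10 counts. Without adjustment 9602 genes (52.7%) had a p-value under 0.05. In 446 genes (2.45%) every TDP-15 mouse lay above every ctrl-PBS mouse, and in 562 (3.08%) every TDP-15 mouse lay below. These shares, with the 23.7% called higher and 23.2% called lower, are the background for every list below. The split by direction depends on the scaling, because with library totals in place of TMM factors 6104 genes were higher and 2807 lower, and the median of all genes moved from −0.0015 to 0.081 on the log2 scale. RNA of whole tissue was measured, so that a change in the number of cells of a type and a change in RNA per cell cannot be told apart here or in any result below.

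**Figure D1:**
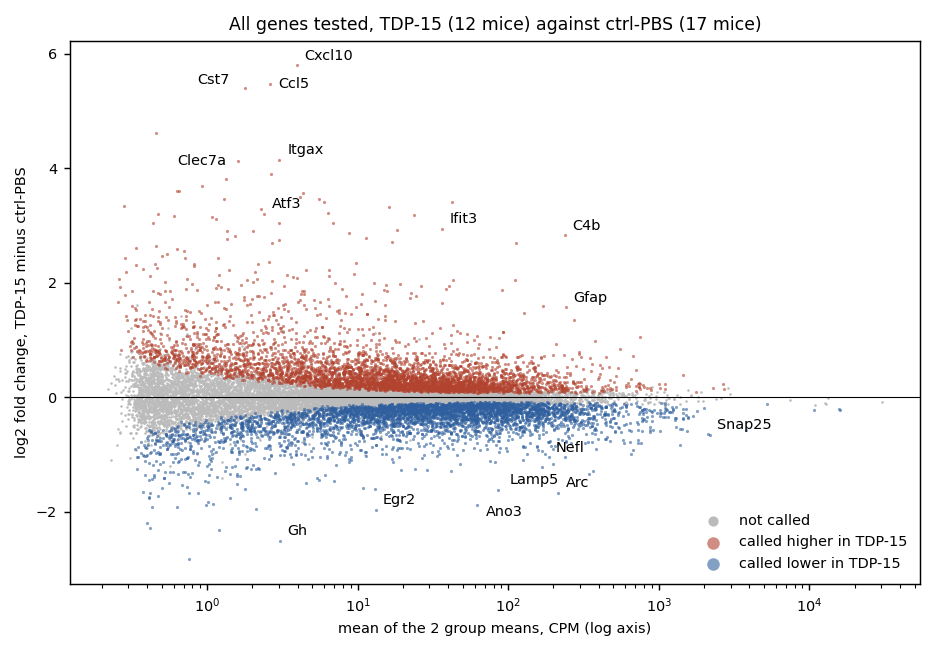
Log2 fold change of TDP-15 minus ctrl-PBS (vertical axis) against the mean of both group means in CPM (horizontal log axis) for the 18220 genes tested, with genes called higher in red, called lower in blue and not called in grey. The largest increases, such as Cxcl10 at 5.79, lie at low levels, while abundant neuronal genes such as Snap25 lie below 0.

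Tardbp, the mouse gene for TDP-43 (chr4:148612382-148627084 in GRCm38.p6), ranged from 119.5 to 160.2 CPM in ctrl-PBS, with a median of 147, and 103 to 135 CPM in TDP-15, with a median of 119. It was lower in TDP-15 (log2 fold change −0.27, SE 0.047, adjusted p = 3.03e-06), although only 6 of the 12 mice lay below all ctrl-PBS mice. Its annotated span overlaps that of Masp2, and whether transgene reads were counted on the mouse gene is not given in the sources used here.

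The 10 largest increases among genes with a mean of at least 1 CPM were all immune genes, and they included the chemokines Cxcl10, Ccl5 and Ccl3, the microglial genes Cst7, Itgax and Clec7a, and the interferon-stimulated genes Ifi204, Mx1, Isg15 and Ifi27l2a. Cxcl10, a chemokine that attracts T cells, ranged from 0 to 0.621 CPM in ctrl-PBS, with a median of 0.101, and 2.98 to 28.0 CPM in TDP-15, with a median of 6.14, a 55.5-fold difference (log2 fold change 5.79, SE 0.41, adjusted p = 3.90e-17). Ccl5, which recruits T cells and monocytes, showed a 44.2-fold difference, with 0 to 0.513 CPM in ctrl-PBS, with a median of 0.0538, and 1.28 to 14.6 CPM in TDP-15, with a median of 4.39 (log2 fold change 5.47, SE 0.38, adjusted p = 3.27e-17). Cst7, a cystatin of activated microglia, ranged from 0 to 0.315 CPM in ctrl-PBS, with a median of 0.0520, and 0.975 to 6.73 CPM in TDP-15, with a median of 2.82 (log2 fold change 5.41, SE 0.39, adjusted p = 9.57e-17). For these 3 genes all 12 TDP-15 mice lay above all 17 ctrl-PBS mice, in which no library held more than 12 counts of Cxcl10 or 6 of Cst7. The integrin gene Itgax ranged from 0 to 0.799 CPM in ctrl-PBS, with a median of 0.262, and 1.14 to 22.4 CPM in TDP-15, with a median of 3.83 and the beta-glucan receptor gene Clec7a from 0 to 0.460 CPM in ctrl-PBS, with a median of 0.156, and 0.993 to 6.98 CPM in TDP-15, with a median of 2.61, again without overlap, with log2 fold changes of 4.15 and 4.13. Ifi204, a DNA-binding member of the Ifi200 family, rose by 3.89 on the log2 scale, and 11 of 12 mice exceeded all ctrl-PBS mice. Its copies are so alike that reads may be split between them, and its value is uncertain for this reason.

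The 10 largest decreases were of other kinds. Ano3, a membrane protein of the anoctamin family expressed in neurons, ranged from 70.6 to 129.7 CPM in ctrl-PBS, with a median of 95.2, and 18.2 to 33.0 CPM in TDP-15, with a median of 27.9 without overlap (log2 fold change −1.88, SE 0.10, adjusted p = 2.83e-22). Egr2 and Arc, both induced by neuronal activity, are described with their group below. Qrfpr, a neuropeptide receptor, and Trpv6, a calcium channel, were lower by 1.85 and 1.83 on the log2 scale, at median levels of 1.68 and 1.25 CPM in ctrl-PBS. Gm31610 (chr3:21421784-21489656) ranged from 0.841 to 2.67 CPM in ctrl-PBS, with a median of 2.15, and 0.0994 to 0.731 CPM in TDP-15, with a median of 0.402 and fell by 2.32 on the log2 scale without overlap, and the predicted genes Gm30620 and Gm30466 by 1.88 and 1.77. Gh and Ngp, the genes for growth hormone and for a neutrophil granule protein, were called lower (−2.51 and −1.96) but rest on single ctrl-PBS mice. Gh reached 44.8 CPM in 1 ctrl-PBS mouse against a median of 0.984 CPM, and Ngp reached 610 counts in another against a median of 0.519 CPM. Without mouse 99 the log2 fold change of Gh was −1.57 and without mouse 137 that of Ngp was −0.85, and neither was called any more.

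**Figure D2:**
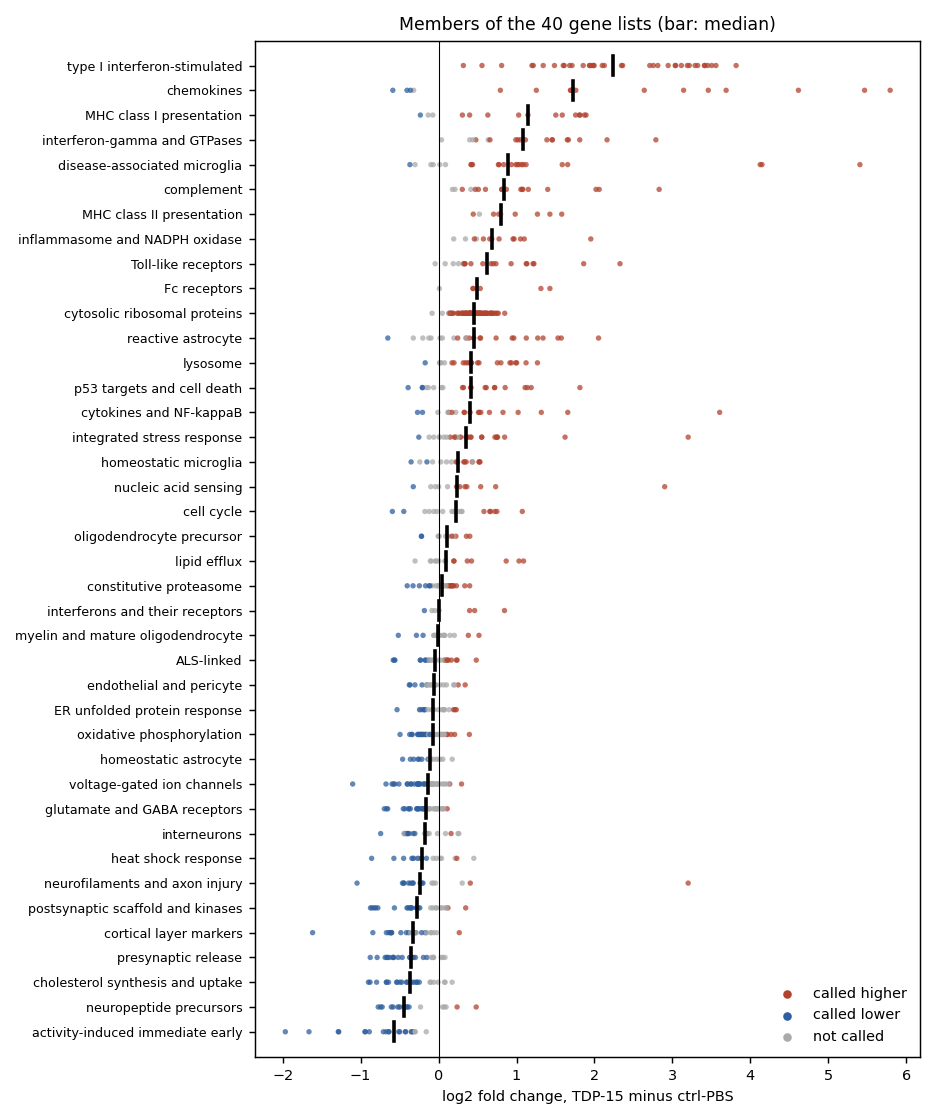
Log2 fold change of TDP-15 minus ctrl-PBS (horizontal axis) for every tested member (points) of the 40 gene lists (vertical axis), ordered by list median (black bars), with members called higher in red, called lower in blue and not called in grey. The type I interferon-stimulated list has the highest median, 2.24, and the immediate early genes have the lowest, −0.57.

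Genes of the interferon response rose together. All 38 members of the type I interferon-stimulated list were called higher, against 23.7% of all genes tested, with a median log2 fold change of 2.24 and a range of 0.32 to 3.82. In 28 of them the groups did not overlap (2.45% of all genes). The ligands themselves were at the limit of detection. Ifnb1 had 0 counts in all 29 mice, which allows up to 0.169 CPM, and Ifna4, Ifng and Ifnl3 had at most 3, 2 and 2 counts in any mouse, so that none of them was tested.

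Of the 7 receptor and kinase genes 3 were higher, 1 was lower and 3 were not called (median 0.0061, −0.022 without TDP-15 mouse 126). Ifngr2, a chain of the interferon-gamma receptor, ranged from 41.8 to 60.9 CPM in ctrl-PBS, with a median of 53.9, and 85.0 to 107 CPM in TDP-15, with a median of 95.3 (log2 fold change 0.85, SE 0.049, adjusted p = 3.19e-20), and Ifngr1, its partner, was 0.46 higher on the log2 scale, both without overlap. Ifnar2 was higher by 0.40, whereas Ifnar1 had a log2 fold change of −0.086 (adjusted p = 0.0602) and was not called. Jak2 was lower by 0.18, a call that was lost with library totals.

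Several antiviral targets are given singly here, and not all of them were among the largest changes of the list. Ifit3, which binds viral RNA complexes, ranged from 5.28 to 15.2 CPM in ctrl-PBS, with a median of 7.35, and 27.6 to 150.3 CPM in TDP-15, with a median of 59.2 (log2 fold change 2.95, SE 0.20, adjusted p = 9.63e-18). Isg15, a ubiquitin-like modifier, ranged from 0.207 to 1.30 CPM in ctrl-PBS, with a median of 0.566, and 2.56 to 19.9 CPM in TDP-15, with a median of 7.71 (log2 fold change 3.56, SE 0.34, adjusted p = 1.21e-12). Mx1, an antiviral GTPase, had the largest log2 fold change of the list at 3.82, at 0 to 0.455 CPM in ctrl-PBS, with a median of 0.158, and 0.694 to 5.48 CPM in TDP-15, with a median of 2.43. No TDP-15 mouse overlapped with ctrl-PBS in any of these 3 genes. Irf7, which amplifies interferon production, rose by 3.19, Rsad2 (viperin) by 3.41 and Usp18, which removes ISG15 and dampens the receptor, by 3.45, each with all 12 mice above ctrl-PBS. The smallest changes were those of Herc6 (0.32) and Cmpk2 (0.56).

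Promoters were examined for the ISRE core, because these genes moved together. The motif searched was GAAANNGAAA on either strand, which reads TTTCNNTTTC on the other, with overlapping matches counted, in the 250 bases before the annotated start of each gene (RefSeq, GRCm38.p6). A promoter was at hand for 13340 of the genes tested, and 3.15% of them held a match, beside 3.46% of all 27025 promoters. The share was 4.71% of 3227 genes called higher, 2.58% of 3183 called lower and 2.68% of 6930 not called. Among genes called higher over 2-fold, 51 of 275 promoters held it (18.5%), and among those called lower over 2-fold 0 of 100. In the type I interferon-stimulated list 11 of the 27 promoters available matched (40.7%), and in the list of interferon-gamma targets and GTPases 10 of 13. The other lists held 0 to 22.2%, among them lists that were lower, with 4 of 18 immediate early and 3 of 20 presynaptic promoters. A match describes the letters and not a bound site. The following sequences show 3 interferon-stimulated genes, the chemokine gene with the largest increase and, for contrast, Cst7, whose window holds no match. Each runs 5′ to 3′ on the gene's strand and ends with the last base before its start, and capitals mark the matches.
Isg15, chr4:156200819-156201068, minus strand: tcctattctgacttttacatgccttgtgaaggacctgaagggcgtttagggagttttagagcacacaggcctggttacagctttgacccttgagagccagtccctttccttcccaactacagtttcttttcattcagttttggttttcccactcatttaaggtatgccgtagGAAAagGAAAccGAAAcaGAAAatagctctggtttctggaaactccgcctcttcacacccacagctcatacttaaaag
Ifit1, chr19:34640639-34640888, plus strand: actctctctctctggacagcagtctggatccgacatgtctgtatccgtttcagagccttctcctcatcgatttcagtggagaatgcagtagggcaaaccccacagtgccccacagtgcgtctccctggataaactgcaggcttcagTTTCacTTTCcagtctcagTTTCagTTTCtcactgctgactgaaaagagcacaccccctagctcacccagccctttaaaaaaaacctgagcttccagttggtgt
Rsad2, chr12:26456453-26456702, minus strand: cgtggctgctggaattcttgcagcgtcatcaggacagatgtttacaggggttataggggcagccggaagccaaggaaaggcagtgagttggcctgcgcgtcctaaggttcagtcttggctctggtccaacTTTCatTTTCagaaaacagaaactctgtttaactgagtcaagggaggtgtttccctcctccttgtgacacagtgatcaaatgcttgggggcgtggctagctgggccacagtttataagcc
Cxcl10, chr5:92348890-92349139, minus strand: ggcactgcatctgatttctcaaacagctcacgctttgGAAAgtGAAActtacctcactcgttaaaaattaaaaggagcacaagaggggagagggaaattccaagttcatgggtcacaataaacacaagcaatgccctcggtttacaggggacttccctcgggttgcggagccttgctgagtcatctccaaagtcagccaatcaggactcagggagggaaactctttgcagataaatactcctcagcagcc
Cst7, chr2:150570165-150570414, plus strand: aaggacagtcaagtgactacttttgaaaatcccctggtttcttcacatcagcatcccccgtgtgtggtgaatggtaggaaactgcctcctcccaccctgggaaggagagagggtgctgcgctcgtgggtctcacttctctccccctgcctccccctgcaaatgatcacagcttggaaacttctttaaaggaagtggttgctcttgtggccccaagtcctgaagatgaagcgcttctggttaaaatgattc
Isg15 held 3 overlapping matches, the nearest beginning 66 bases before the start, Ifit1 held 2, the nearest at 85, and Rsad2 and Cxcl10 held 1 each, at 120 and 213. Cxcl10 and Cst7 rose by 5.79 and 5.41 on the log2 scale. The windows shown were picked as examples, and whether a match bears on the size of a change was not tested.

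The list of interferon-gamma targets and GTPases had 14 of 18 members higher and 0 lower (median 1.08). Gbp6 and Gbp3, guanylate-binding proteins that attack intracellular pathogens, rose by 2.79 and 2.16 on the log2 scale. Gbp6 ranged from 1.29 to 7.80 CPM in ctrl-PBS, with a median of 2.23, and 7.30 to 63.9 CPM in TDP-15, with a median of 17.0, with 11 of 12 mice above all controls. Over this list the groups overlapped more than over the type I list, since 1 ctrl-PBS mouse (131) had a mean distance of 1.14 from its group and only 5 of 12 TDP-15 mice exceeded it.

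Among chemokines, 12 of 16 tested members were higher, 3 lower and 1 not called (median 1.73). Besides Cxcl10 and Ccl5, Ccl4 rose by 4.62, Ccl2, the main attractant of monocytes, by 3.69, Ccl3 by 3.46 and Ccl12 by 3.14, each with all 12 mice above ctrl-PBS. Ccl2 ranged from 0 to 0.312 CPM in ctrl-PBS, with a median of 0.104, and 0.480 to 4.92 CPM in TDP-15, with a median of 1.34. The 3 chemokines that were lower are made by neurons, glia or vessels in the healthy brain. Cx3cl1, the neuronal ligand of the microglial receptor CX3CR1, ranged from 738 to 1076 CPM in ctrl-PBS, with a median of 937, and 531 to 728 CPM in TDP-15, with a median of 609 (log2 fold change −0.59, SE 0.055, adjusted p = 8.36e-13), without overlap. Cxcl14 was lower by 0.41 and Cxcl12 by 0.36. Another 8 chemokines were too low to test, and Ccl7 reached 1.06 CPM and Cxcl13 2.84 CPM in their highest TDP-15 mouse. When each of the mice had to reach 10 counts, only 5 chemokines were left, of which 1 was higher, 3 were lower and 1 was not called (median −0.36).

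Cytokines and NF-kappaB genes were higher in 14 of 19 and lower in 2 (median 0.40). Tnf ranged from 0 to 0.612 CPM in ctrl-PBS, with a median of 0, and 0.389 to 2.79 CPM in TDP-15, with a median of 0.820 (log2 fold change 3.61, SE 0.56, adjusted p = 4.45e-07), at levels of few counts. Icam1, an adhesion molecule induced by NF-kappaB, ranged from 1.97 to 3.69 CPM in ctrl-PBS, with a median of 2.59, and 3.47 to 22.1 CPM in TDP-15, with a median of 7.29 (log2 fold change 1.66, SE 0.17, adjusted p = 1.85e-11). Il34, a survival factor for microglia made by neurons, was lower by 0.27 and Il18 by 0.21, the latter not with library totals. Il1b, Il1rn, Il6, Il10, Il12b and Ripk3 were too low to test, and Il6 had no more than 3 counts in any mouse.

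Sensors of microbial molecules also rose, with 15 of 20 tested members of the Toll-like receptor list higher and 0 lower (median 0.62). Tlr2, which detects bacterial lipoproteins, ranged from 0.0503 to 1.15 CPM in ctrl-PBS, with a median of 0.691, and 1.71 to 8.01 CPM in TDP-15, with a median of 3.12 (log2 fold change 2.33, SE 0.23, adjusted p = 3.79e-12), without overlap. Tlr1, its partner, rose by 1.86, and Cd14, a co-receptor, by 1.21. Tlr9, the receptor for CpG DNA, ranged from 1.0041 to 2.09 CPM in ctrl-PBS, with a median of 1.44, and 1.74 to 7.10 CPM in TDP-15, with a median of 3.06 (log2 fold change 1.12, SE 0.15, adjusted p = 5.91e-09), and 10 of 12 mice lay above all controls. Tlr4 rose by 1.22 and Tlr7 by 0.93. Of 13 genes of nucleic acid sensing 7 were higher and 1 lower (median 0.23). Zbp1, a sensor of Z-form nucleic acid, rose by 2.90 and the transcription factor gene Irf5 by 0.73, while Irf3 was lower by 0.32.

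Antigen presentation genes followed. MHC class I genes were higher in 12 of 15 and lower in 1 (median 1.15). B2m, the shared light chain, ranged from 50.5 to 124 CPM in ctrl-PBS, with a median of 81.5, and 117 to 540.4 CPM in TDP-15, with a median of 239 (log2 fold change 1.59, SE 0.17, adjusted p = 5.26e-11). H2-K1 and H2-D1 rose by 1.89 and 1.87, but H2-D1 varied widely within both groups, from 8.08 to 107 CPM in ctrl-PBS, with a median of 35.1, and 17.8 to 452 CPM in TDP-15, with a median of 125, and reads of related H2 genes may have been shared. Pdia3, a chaperone of class I loading, was lower by 0.23. MHC class II genes were higher in 7 of 9 (median 0.80) with broad overlap. The invariant chain gene Cd74 ranged from 2.36 to 22.9 CPM in ctrl-PBS, with a median of 3.84, and 3.68 to 43.5 CPM in TDP-15, with a median of 11.6 (log2 fold change 1.58, SE 0.30, adjusted p = 2.15e-05), and only 2 TDP-15 mice exceeded the highest ctrl-PBS mouse. H2-Ab1 showed the same overlap at a log2 fold change of 1.43. Without TDP-15 mouse 126 the number of class II genes called higher was 5.

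Complement genes were higher in 15 of 18 and lower in 0 (median 0.84). C4b, a component of the classical pathway, ranged from 35.4 to 73.7 CPM in ctrl-PBS, with a median of 59.1, and 175 to 800.3 CPM in TDP-15, with a median of 412 (log2 fold change 2.83, SE 0.16, adjusted p = 8.17e-21), without overlap and with the largest change of the list. The genes of the initiating complex, C1qa, C1qb and C1qc, rose by 1.08, 1.07 and 1.15. C1qa ranged from 20.1 to 35.2 CPM in ctrl-PBS, with a median of 26.4, and 30.0 to 116 CPM in TDP-15, with a median of 52.2, and 10 of 12 mice lay above all controls. C3, the central component, rose by 2.02 and Cfb, of the alternative pathway, by 2.06, the latter with its highest value of 17.9 CPM in mouse 126 against a median of 1.65 CPM. Of the 6 Fc receptors tested 5 were higher (median 0.49). Fcgr1, the high-affinity receptor for IgG, ranged from 1.48 to 3.30 CPM in ctrl-PBS, with a median of 2.20, and 3.02 to 9.84 CPM in TDP-15, with a median of 5.71 (log2 fold change 1.31, SE 0.14, adjusted p = 1.67e-11), and Trim21, a cytosolic antibody receptor that is also induced by interferon, rose by 1.43.

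Disease-associated microglial genes were higher in 18 of 24 and lower in 1 (median 0.88), against 23.7% of all genes higher. In 9 of them every TDP-15 mouse lay above all controls (2.45% of all genes). Behind Cst7, Itgax and Clec7a, the receptor pair of this state rose by less. Trem2, a lipid receptor, ranged from 14.3 to 22.9 CPM in ctrl-PBS, with a median of 17.6, and 15.9 to 52.9 CPM in TDP-15, with a median of 29.8 (log2 fold change 0.78, SE 0.12, adjusted p = 7.47e-07), and Tyrobp, its adaptor, rose by 1.09. Lgals3 rose by 1.66, Gpnmb by 1.07, Cd68 by 1.12 and Spp1 by 1.01. Not every gene of the programme moved. Apoe was at 751 to 1109 CPM in ctrl-PBS, with a median of 973, and 847 to 1135 CPM in TDP-15, with a median of 1009 (log2 fold change 0.089, SE 0.067, adjusted p = 0.286) and was not called, except with library totals, and Igf1 (−0.069) and Fth1 (−0.10) were not called in any setting. All 3 are also expressed outside microglia, and whether this bears on their values was not tested. Timp2 was lower by 0.37.

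Genes of resting microglia changed less and in both directions, 9 of 17 higher and 2 lower (median 0.24). Csf1r, the receptor for a survival factor of microglia, ranged from 54.8 to 76.5 CPM in ctrl-PBS, with a median of 69.5, and 72.8 to 127 CPM in TDP-15, with a median of 89.1 (log2 fold change 0.43, SE 0.061, adjusted p = 4.87e-08), and Cx3cr1 and Tmem119 rose by 0.32 and 0.35. The part that the number of microglia had in the immune lists was not tested. P2ry12, a purine receptor that resting microglia use to sense injury, was lower by 0.15 (adjusted p = 0.0260), a call lost with library totals or no filter and without any 1 of 4 mice (TDP-15 184 or 254, ctrl-PBS 137 or 232). Mef2c, which cortical neurons also express, was lower by 0.35. Aif1, which encodes Iba1, did not pass the test, at 6.93 to 17.4 CPM in ctrl-PBS, with a median of 12.1, and 6.35 to 18.1 CPM in TDP-15, with a median of 11.6 (log2 fold change 0.029, SE 0.12, adjusted p = 0.868).

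Inflammasome and NADPH oxidase genes were higher in 10 of 13 (median 0.68), with Cybb, the catalytic subunit of the oxidase, at 0.256 to 1.10 CPM in ctrl-PBS, with a median of 0.703, and 0.646 to 6.69 CPM in TDP-15, with a median of 2.41 (log2 fold change 1.95, SE 0.23, adjusted p = 3.32e-10). Lysosomal genes were higher in 20 of 25 and lower in 1 (median 0.42). Ctss, a protease of antigen-presenting cells, ranged from 19.4 to 30.6 CPM in ctrl-PBS, with a median of 24.2, and 33.5 to 110.3 CPM in TDP-15, with a median of 57.6 (log2 fold change 1.27, SE 0.12, adjusted p = 2.22e-12), and Ctsd rose by 0.99, both without overlap, while Psap was lower by 0.17. Of 15 genes of lipid efflux 7 were higher and 0 lower (median 0.089). Abca1, which exports cholesterol to apolipoproteins, ranged from 20.3 to 38.6 CPM in ctrl-PBS, with a median of 26.8, and 40.7 to 59.6 CPM in TDP-15, with a median of 48.5 (log2 fold change 0.87, SE 0.092, adjusted p = 2.37e-11), and Apoc1 and Ch25h rose by 1.09 and 1.03 at levels under 2 CPM.

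Reactive astrocyte genes were mostly higher, while homeostatic ones changed little or were lower. Reactive genes were higher in 15 of 25 and lower in 1 (median 0.45). Gfap, the intermediate filament of reactive astrocytes, ranged from 87.2 to 198 CPM in ctrl-PBS, with a median of 119.8, and 198 to 584 CPM in TDP-15, with a median of 347 (log2 fold change 1.57, SE 0.17, adjusted p = 7.88e-11), and 11 of 12 mice lay above all controls. Serpina3n, a secreted protease inhibitor, ranged from 10.6 to 22.3 CPM in ctrl-PBS, with a median of 15.2, and 26.8 to 189.7 CPM in TDP-15, with a median of 61.5 (log2 fold change 2.05, SE 0.25, adjusted p = 1.15e-09), without overlap. Cd44, Vim and Osmr rose by 1.53, 1.12 and 0.94, and Ptgs2, which cortical neurons also express, was lower by 0.65. Homeostatic astrocyte genes were higher in 0 of 16 and lower in 7 (median −0.11). With library totals 5 of them were lower and 1 higher (median −0.027). Gja1, the gap junction protein connexin 43, ranged from 87.3 to 119.9 CPM in ctrl-PBS, with a median of 95.3, and 54.0 to 106 CPM in TDP-15, with a median of 70.8 (log2 fold change −0.46, SE 0.078, adjusted p = 2.20e-06), and Slc1a2, the main glutamate transporter, from 1467 to 2006 CPM in ctrl-PBS, with a median of 1773, and 884 to 1839.8 CPM in TDP-15, with a median of 1314 (log2 fold change −0.36, SE 0.069, adjusted p = 1.74e-05). Aqp4, Aldh1l1 and Sox9 did not pass the test, with log2 fold changes of 0.021, −0.11 and 0.054.

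**Figure D3:**
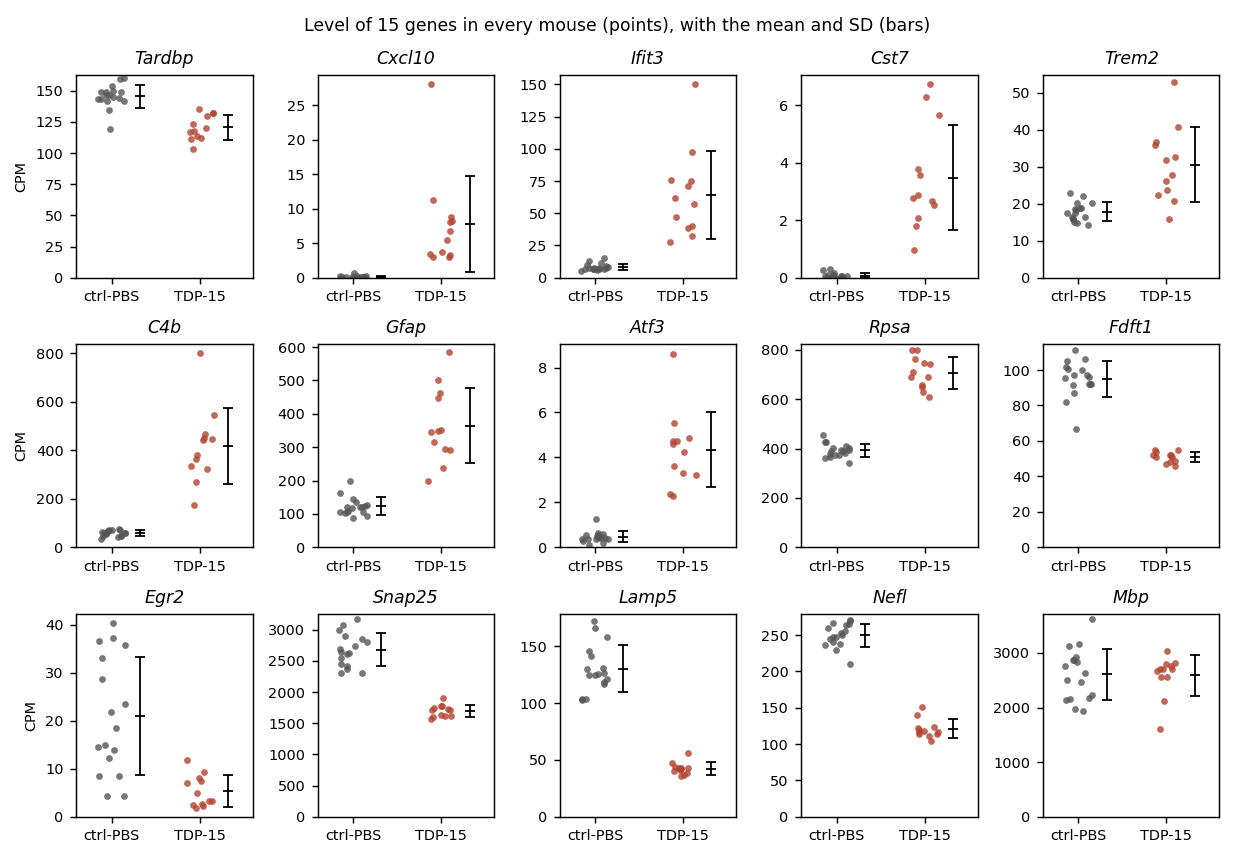
Level in CPM (vertical axes, starting at 0) of 15 genes in each of the 17 ctrl-PBS mice (grey points) and 12 TDP-15 mice (red points), with the mean and SD beside each group. Cxcl10, Cst7, C4b, Rpsa, Fdft1, Snap25, Lamp5 and Nefl show no overlap, Egr2 and Trem2 overlap, and for Mbp 1 of the 12 TDP-15 mice lies below all controls.

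Neuronal genes were mostly lower. The strongest list was that of activity-induced immediate early genes, with 17 of 22 lower and 0 higher (median −0.57), against 23.2% of all genes lower. Egr2, a zinc finger transcription factor, ranged from 4.27 to 40.4 CPM in ctrl-PBS, with a median of 18.5, and 1.81 to 11.9 CPM in TDP-15, with a median of 4.13 (log2 fold change −1.97, SE 0.37, adjusted p = 1.30e-05). Arc, which acts at the postsynapse, ranged from 101 to 673 CPM in ctrl-PBS, with a median of 329, and 32.9 to 229 CPM in TDP-15, with a median of 82.7 (log2 fold change −1.66, SE 0.28, adjusted p = 1.65e-06). Both varied several-fold among the controls, and 6 and 7 of 12 TDP-15 mice lay below all of them. Egr1 was lower by 1.29, Npas4 by 1.28 and Fos by 0.89. Dusp1, a phosphatase gene of the list, had a log2 fold change of −0.30 (adjusted p = 0.116) and was not called. Over the mean of this list TDP-15 mouse 346 lay at −0.019 and mouse 243 at −1.29, so that only 5 of 12 mice lay below every control.

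Neuropeptide precursors were lower in 12 of 19 and higher in 2 (median −0.44). Npy, made by cortical interneurons, ranged from 99.9 to 166 CPM in ctrl-PBS, with a median of 124, and 60.8 to 107 CPM in TDP-15, with a median of 74.6 (log2 fold change −0.74, SE 0.087, adjusted p = 5.13e-10). Penk, the enkephalin precursor, was lower by 0.77 but ranged from 72.5 to 422 CPM in ctrl-PBS, with a median of 251, and 68.8 to 208 CPM in TDP-15, with a median of 131. Penk is abundant in striatum, and the summed level of 5 striatal markers spanned 187 to 978 CPM in ctrl-PBS and 281 to 697 CPM in TDP-15, with Drd1 called lower (−0.51) and the other 4 not called. The Drd1 call was lost with library totals, no filter, limma-voom or DESeq2 and without any 1 of 14 mice. Their part in the result was not tested. Vgf was lower by 0.41 and Sst by 0.38, while Tac2 and Pcsk1n were higher by 0.48 and 0.24.

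Presynaptic genes were lower in 19 of 26 and higher in 0 (median −0.35), with 8 below all controls in every TDP-15 mouse (3.08% of all genes). Stx1a and Snap25, which form the vesicle fusion complex with synaptobrevin, fell by 0.79 and 0.66. Snap25 ranged from 2306 to 3179 CPM in ctrl-PBS, with a median of 2649.5, and 1575 to 1909 CPM in TDP-15, with a median of 1713 (adjusted p = 1.45e-18), and Syn1, a synaptic vesicle protein gene, was lower by 0.37. None of these 3 overlapped.

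Postsynaptic scaffold and kinase genes were lower in 16 of 26 and higher in 2 (median −0.28). Camk4, a calcium-dependent kinase of the nucleus, was lower by 0.87. Ppp3cb, the catalytic subunit of calcineurin, ranged from 186 to 221 CPM in ctrl-PBS, with a median of 199, and 97.1 to 119.7 CPM in TDP-15, with a median of 111 (log2 fold change −0.85, SE 0.047, adjusted p = 8.17e-21), and Camk2a, the most abundant kinase gene of the list, from 3637 to 5543 CPM in ctrl-PBS, with a median of 4585, and 2697 to 3477 CPM in TDP-15, with a median of 3044 (log2 fold change −0.57, SE 0.066, adjusted p = 4.16e-10). Homer3 and Nlgn2 were higher by 0.35 and 0.12, the latter not with no filter or without any 1 of TDP-15 mice 126, 261 and 328. With library totals 6 genes of the list were higher in place of 2.

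Glutamate and GABA receptor genes were lower in 19 of 36 and higher in 1 (median −0.16), led by the metabotropic receptors Grm8 (−0.70) and Grm4 (−0.67). With library totals 16 of these receptor genes were lower and 3 higher (median −0.080). Grik5 was higher by 0.11, a call lost with no filter, with sex as a covariate or without any 1 of 6 mice. Voltage-gated channel genes were lower in 23 of 43 and higher in 2 (median −0.14), but 17 were lower and 5 higher with library totals (median −0.056). Scn4b, a sodium channel subunit that striatal neurons also express, ranged from 66.7 to 262 CPM in ctrl-PBS, with a median of 186, and 51.4 to 112 CPM in TDP-15, with a median of 76.9 (log2 fold change −1.10, SE 0.17, adjusted p = 2.05e-07) with overlap. Kcnd2, a channel of the A-type potassium current, ranged from 62.3 to 109 CPM in ctrl-PBS, with a median of 88.7, and 44.9 to 65.8 CPM in TDP-15, with a median of 56.0 (log2 fold change −0.67, SE 0.067, adjusted p = 4.59e-12), and Kcnb2 and Scn1a were higher by 0.29 and 0.14, the latter not with no filter or without any 1 of 11 mice.

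Neurofilament and axon injury genes were lower in 11 of 17 and higher in 2 (median −0.24). Nefl, the gene for the neurofilament light chain, ranged from 211 to 271 CPM in ctrl-PBS, with a median of 250.1, and 104 to 152 CPM in TDP-15, with a median of 118, so that each TDP-15 mouse lay far below each control (log2 fold change −1.05, SE 0.056, adjusted p = 1.98e-21). Nefm was lower by 0.44, Nefh by 0.33 and Gap43, a growth cone protein, by 0.46. Ina, which encodes another neuronal intermediate filament, was higher by 0.41, at 292 to 409.7 CPM in ctrl-PBS, with a median of 349.7, and 404 to 519.9 CPM in TDP-15, with a median of 464. The second member higher was Atf3, a transcription factor induced by axon injury and by stress, at 0.108 to 1.25 CPM in ctrl-PBS, with a median of 0.429, and 2.29 to 8.62 CPM in TDP-15, with a median of 4.41 (log2 fold change 3.20, SE 0.22, adjusted p = 4.01e-17), without overlap.

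Cortical layer markers were lower in 15 of 24 and higher in 1 (median −0.33). Lamp5, which marks superficial pyramidal cells and a class of interneurons, ranged from 103 to 172 CPM in ctrl-PBS, with a median of 125, and 35.7 to 56.3 CPM in TDP-15, with a median of 42.1, without overlap (log2 fold change −1.62, SE 0.088, adjusted p = 5.60e-21). Pcp4, a marker of deep layers that the striatum also expresses, was lower by 0.84. General neuronal markers did not move as one. Slc17a7, the vesicular glutamate transporter of excitatory neurons, was at 1470.0 to 2228 CPM in ctrl-PBS, with a median of 1847, and 1378 to 2115 CPM in TDP-15, with a median of 1782 and was not called (log2 fold change −0.068, SE 0.064, adjusted p = 0.400), whereas Nrgn was lower by 0.83 and Neurod6 by 0.50. Interneuron genes were lower in 9 of 19 and higher in 1 (median −0.18). Pvalb was lower by 0.44 and Gad1 by 0.42, Lhx6 was higher by 0.16, and Gad2 had a log2 fold change of −0.14 (adjusted p = 0.321).

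Cholesterol synthesis and uptake genes were lower in 17 of 24 and higher in 0 (median −0.37), against 23.2% of all genes lower. In 7 of them every TDP-15 mouse lay below all controls (3.08% of all genes). Fdft1, the squalene synthase gene, ranged from 66.7 to 111 CPM in ctrl-PBS, with a median of 95.9, and 45.9 to 55.0 CPM in TDP-15, with a median of 51.3 (log2 fold change −0.90, SE 0.058, adjusted p = 1.45e-18), and its annotated span touches that of Ctsb. Hmgcs1, an early enzyme of the pathway, ranged from 103 to 145 CPM in ctrl-PBS, with a median of 125, and 57.4 to 87.1 CPM in TDP-15, with a median of 71.6 (log2 fold change −0.88, SE 0.073, adjusted p = 1.04e-14). Sqle was lower by 0.80, Idi1 by 0.67 and Srebf2, the transcription factor of the pathway, by 0.53. With library totals 15 genes of the list were lower and 2 higher.

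Stress programmes moved differently. The integrated stress response, in which phosphorylated eIF2 favours translation of ATF4, had 18 of 27 genes higher and 1 lower (median 0.35). Atf4 ranged from 62.3 to 76.3 CPM in ctrl-PBS, with a median of 68.9, and 104 to 132 CPM in TDP-15, with a median of 116 (log2 fold change 0.76, SE 0.060, adjusted p = 3.10e-15), Ddit3, the gene for CHOP, from 8.15 to 12.4 CPM in ctrl-PBS, with a median of 10.2, and 12.9 to 22.9 CPM in TDP-15, with a median of 16.4 (log2 fold change 0.75, SE 0.089, adjusted p = 7.61e-10), and Pycr1, a proline synthesis enzyme, from 0.946 to 2.23 CPM in ctrl-PBS, with a median of 1.66, and 2.68 to 6.19 CPM in TDP-15, with a median of 4.98 (log2 fold change 1.62, SE 0.14, adjusted p = 3.53e-14), all without overlap. Slc7a11 was lower by 0.25, a call that was lost with library totals and without any 1 of 3 mice (TDP-15 126 or 284, ctrl-PBS 232). Genes of the unfolded protein response of the endoplasmic reticulum showed no common direction, 3 of 20 higher and 5 lower (median −0.066, 0.019 with library totals, where 6 were higher and 1 lower). Syvn1 and Dnajb9 were higher by 0.23 and 0.21, Creld2 was lower by 0.53, and Hspa5, the chaperone BiP, had a log2 fold change of −0.19 (adjusted p = 0.131).

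Heat shock genes were lower in 9 of 18 and higher in 1 (median −0.22). Hsph1 ranged from 125 to 202 CPM in ctrl-PBS, with a median of 153, and 65.5 to 107 CPM in TDP-15, with a median of 89.8 (log2 fold change −0.86, SE 0.085, adjusted p = 3.21e-12), and Dnaja1 and Hsp90aa1 were lower by 0.57 and 0.45, each without overlap. Bag3 was higher by 0.23, and not without TDP-15 mouse 126. Targets of p53 and cell death genes were higher in 13 of 21 and lower in 3 (median 0.41). Bid, a pro-apoptotic BCL2 family member, ranged from 4.98 to 10.0 CPM in ctrl-PBS, with a median of 7.23, and 13.1 to 21.5 CPM in TDP-15, with a median of 16.1 (log2 fold change 1.19, SE 0.082, adjusted p = 2.05e-17), Cdkn1a, the gene for p21, rose by 1.11 and Eda2r by 1.81, while Ccng1 and Zmat3 were lower by 0.39 and 0.21.

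Ribosomal protein genes moved almost as a block, 70 of 76 higher and 0 lower (median 0.45, range −0.083 to 0.85). Of all genes tested 23.7% were higher. In 29 of the 76 every TDP-15 mouse lay above all controls (2.45% of all genes). Rpsa ranged from 343 to 454 CPM in ctrl-PBS, with a median of 392, and 608 to 801 CPM in TDP-15, with a median of 700.5 (log2 fold change 0.85, SE 0.048, adjusted p = 1.43e-20) and Rps19 from 28.5 to 43.6 CPM in ctrl-PBS, with a median of 35.5, and 47.9 to 67.6 CPM in TDP-15, with a median of 60.4 (log2 fold change 0.77, SE 0.067, adjusted p = 6.26e-14). Many of these genes have processed copies in the genome, among which reads may be split. Of 32 genes of the constitutive proteasome 10 were higher and 6 lower, near the shares of all genes (median 0.044), from Psmb3 at 0.40 to Psmc5 at −0.40, and with library totals 19 were higher and 3 lower. Oxidative phosphorylation genes were lower in 18 of 44 and higher in 5 (median −0.073), but 12 were lower and 12 higher with library totals (median 0.0093). Ndufa2 and Cox5a were lower by 0.49 and 0.37, and Cox7c and Ndufs8 higher by 0.39 and 0.21. Of 18 cell cycle genes 6 were higher and 2 lower (median 0.23). Mki67 ranged from 0.306 to 1.69 CPM in ctrl-PBS, with a median of 0.9990, and 1.24 to 3.25 CPM in TDP-15, with a median of 2.09 (log2 fold change 1.07, SE 0.20, adjusted p = 1.87e-05) and Mcm7 rose by 0.75, while Ccnd1 was lower by 0.59 and Mcm5 by 0.45.

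Of the mouse counterparts of genes linked to ALS, 7 of 25 were higher and 8 lower, shares near the 23.7% and 23.2% of all genes tested (median −0.044, 0.040 with library totals). Optn, an autophagy receptor, ranged from 10.6 to 14.4 CPM in ctrl-PBS, with a median of 12.6, and 14.7 to 20.1 CPM in TDP-15, with a median of 17.6 (log2 fold change 0.48, SE 0.062, adjusted p = 4.55e-09), without overlap, and Kif5a, a kinesin of axonal transport, was higher by 0.24. Tuba4a, an alpha-tubulin, ranged from 548 to 712 CPM in ctrl-PBS, with a median of 617, and 348 to 463 CPM in TDP-15, with a median of 419.7 (log2 fold change −0.58, SE 0.045, adjusted p = 1.32e-15), and Cyld, a deubiquitinase, was lower by 0.57, Ubqln2, a shuttle protein to the proteasome, by 0.56 and Sod1 by 0.23.

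Oligodendrocyte genes changed little as a group. Of 18 genes of myelin and mature oligodendrocytes 2 were higher and 3 lower (median −0.0035, 0.079 with library totals). Mbp was at 1933 to 3619 CPM in ctrl-PBS, with a median of 2634, and 1599 to 3028 CPM in TDP-15, with a median of 2705 (log2 fold change −0.012, SE 0.091, adjusted p = 0.930). Cldn11 and Trf were higher by 0.52 and 0.38, Ugt8a and Gjc3 lower by 0.52 and 0.28. Oligodendrocyte precursor genes were higher in 4 of 12 and lower in 2 (median 0.11), with Bmp4 and Lhfpl3 at 0.40 and 0.36 and Ptprz1 and Bcas1 at −0.22 and −0.22. These shares lie near those of all genes tested, 23.7% and 23.2%. Ptprz1 and Bcas1 were not called with library totals, nor Bcas1 without any 1 of 4 mice (TDP-15 184, ctrl-PBS 41, 99 or 110), nor Bmp4 without TDP-15 mouse 126 or 254. Endothelial and pericyte genes were higher in 2 of 21 and lower in 5 (median −0.053, 0.030 with library totals, where 6 were higher and 2 lower), with Ly6c1 and Slc2a1 higher by 0.34 and 0.25 and Tie1 and Kdr lower by 0.38 and 0.37. Ly6c1 was not called without TDP-15 mouse 126, and Kdr not with library totals.

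Markers of blood cells and of neighbouring tissue were checked beside these groups. Of 18 markers of T and NK cells 4 were tested, 2 of them higher, among them Lck by 0.60, with Zap70 not called and Cd4 lower by 1.60. Cd4 spanned 1.79 to 35.2 CPM in ctrl-PBS, with a median of 20.0, and 3.50 to 9.35 CPM in TDP-15, with a median of 6.38, and the defining markers Cd3d, Cd3e, Cd3g and Cd8a had no more than 6, 7, 8 and 6 counts in any mouse. Trac, Trbc2 and 8 immunoglobulin genes were not analysed here. Of 16 B and plasma cell markers 3 were tested, with Jchain and Pax5 higher and Cd79a not called. Of 6 monocyte markers 3 were tested, and Plac8 rose by 2.33 at up to 2.03 CPM, while Ccr2 had at most 16 counts. Of 8 neutrophil markers, Ngp and S100a9 were tested. S100a9 had a log2 fold change of −1.73, which was −0.74 and not called without ctrl-PBS mouse 137, and its call was also lost with limma-voom or no filter and without any 1 of 3 other mice (TDP-15 243 or 346, ctrl-PBS 71). The summed level of the neutrophil markers reached 50.3 CPM in 1 ctrl-PBS mouse against at most 5.12 CPM in TDP-15. Among 5 markers of border macrophages Cd163 (not with no filter) and Lyve1 were higher and 3 were not called. None of 5 erythrocyte markers, haemoglobin genes and Alas2, was called.

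Ttr, made by the choroid plexus, was called higher (2.05), but it reached 1455 CPM in mouse 243 against a median of 23.0 CPM, and without this mouse its log2 fold change was 0.53 and not called. The call lay at the threshold (adjusted p = 0.0469) and was also lost without any 1 of 17 other mice. The pituitary gene Pomc had a log2 fold change of −0.82 (adjusted p = 0.0449), but the call was lost with library totals, no filter, limma-voom or DESeq2 and without any 1 of 14 mice, and without ctrl-PBS mouse 131 the value was −0.51. Olfactory bulb, meningeal and ependymal markers gave 0 of 5, 1 of 6 and 1 of 4 calls, and hippocampal and thalamic markers 2 of 4 and 3 of 5, in both directions. The part of these tissues in the lists above was not tested.

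TDP-15 mice differed among themselves in the strength of the immune lists and of the immediate early genes described above. Per mouse, the mean distance from the ctrl-PBS mean in log2(CPM + 0.5) over the 38 type I interferon-stimulated genes ranged from 1.05 (mouse 184) to 3.08 (mouse 126), against −0.29 to 0.38 among controls. Mouse 126 was also highest for chemokines (1.81, next 1.62), complement (1.67, next 1.12), disease-associated microglia (1.48, next 1.18) and reactive astrocytes (1.13, next 0.64). Mouse 184 was lowest for each of these 5 lists. The presynaptic list spread less, with means between −0.43 and −0.30 over the 12 mice. Without mouse 126, 8169 genes were called in place of 8542 and 477 over 2-fold in place of 520, and all 38 type I interferon-stimulated genes were still called higher (median 2.06).

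**Figure D4:**
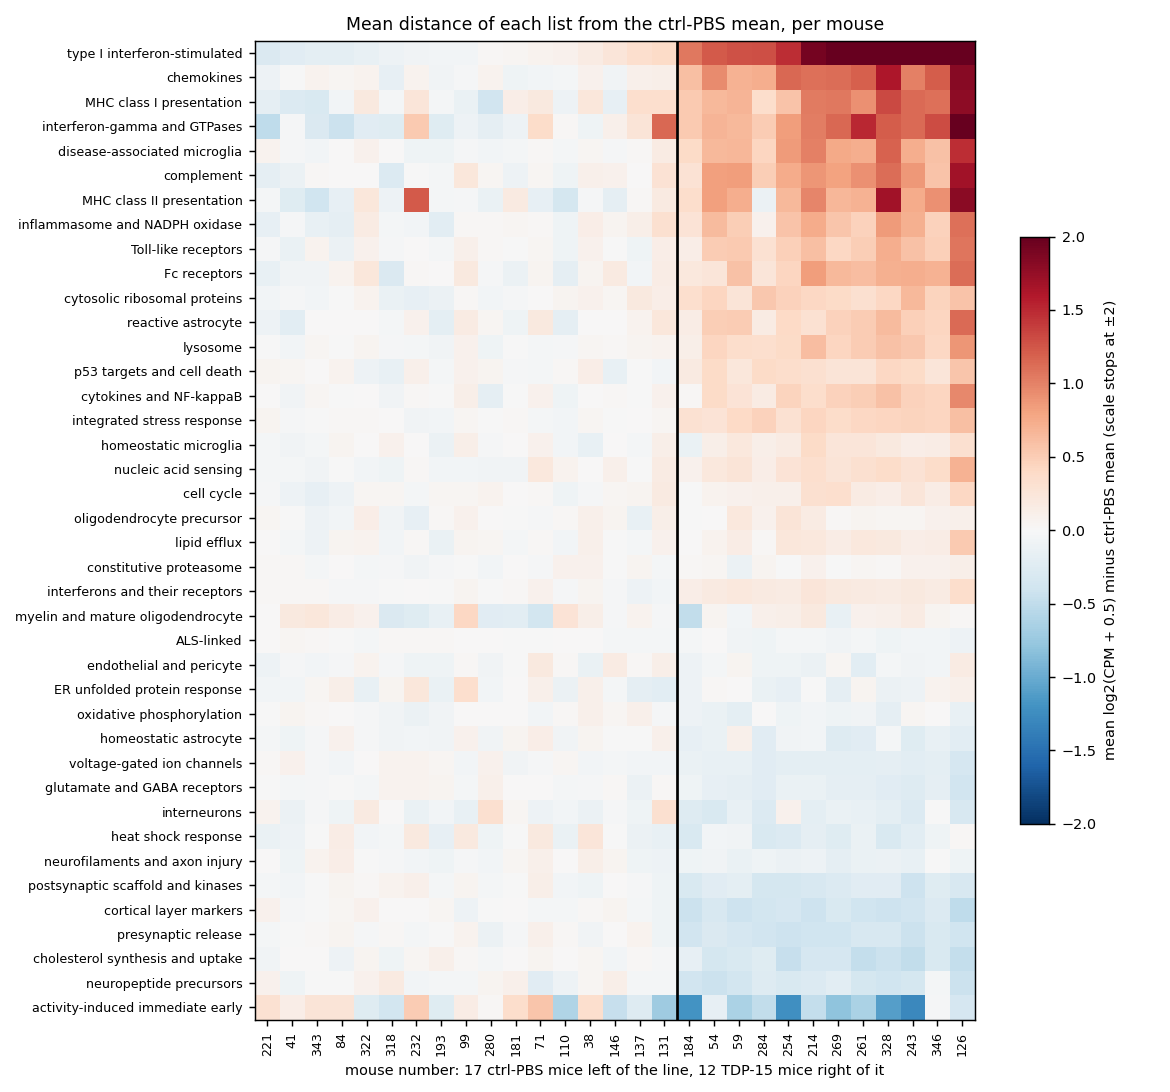
Mean distance from the ctrl-PBS mean in log2(CPM + 0.5) of each of the 40 lists (rows, ordered by median fold change) in each mouse (columns, by number, ordered by the type I interferon-stimulated list within each group), red for higher and blue for lower, with the colour scale ending at 2. Mouse 126 is highest in most immune rows, the lowest is mouse 184 or mouse 284, and the presynaptic and cortical layer rows are pale blue in all 12 TDP-15 mice.

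No difference between sexes in the response was detected. In an interaction model of the 29 mice 0 of 17241 genes were called, 538 had an unadjusted p-value under 0.05 (3.12%), and the same test gave 0 calls with limma-voom and with DESeq2. The smallest p-values were those of Atg16l2 (difference of log2 fold changes 0.64, adjusted p = 0.707), Gm51454 (−1.69) and Mrpl48 (−0.73). With 5 females and 7 males in TDP-15 the standard error of such a difference was 0.15 in the median gene, so that small differences were not detectable. Differences as large as those of the genes just named were not called either.

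To compare mice of the same genotype, TDP-15 was set against TDP-PBS, the bigenic mice without the peptide conjugate. Peptide, ovalbumin and possibly the oligonucleotide and adjuvant still differ together between these groups. edgeR's quasi-likelihood test called 0 of 18220 genes, with 552 at an unadjusted p-value under 0.05 (3.03%), and DESeq2 and limma-voom called 0 as well. The smallest p-values belonged to A830092H15Rik, Gm46845 and Lilr4b. Lilr4b, a leukocyte immunoglobulin-like receptor gene whose reads may be shared with its neighbour Lilrb4a, ranged from 0.191 to 0.627 CPM in TDP-PBS and from 0.195 to 1.46 CPM in TDP-15 (log2 fold change 1.03, 95% interval 0.51 to 1.55, adjusted p = 0.9996). The other 2 were lower in TDP-15 by 0.75 and 0.66 on the log2 scale with the same adjusted p-value.

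Of the 8542 genes called against ctrl-PBS, 8355 (97.8%) had a 95% interval of TDP-15 minus TDP-PBS that stayed within 2-fold in either direction. Over all genes tested 17435 of 18220 did (95.7%), a share near that of the called genes. Of the 520 genes over 2-fold against ctrl-PBS 416 did. The other called genes changed by less than 2-fold against ctrl-PBS, so that for them this bound allows differences as large as that change. For Cxcl10 the difference was 0.13 (−0.48 to 0.74), for Cst7 0.039 (−0.54 to 0.62) and for Gfap −0.063 (−0.45 to 0.32). It was −0.054 (−0.17 to 0.067) for Nefl, 0.026 (−0.066 to 0.12) for Snap25 and −0.48 (−1.28 to 0.32) for Egr2. A missed threshold does not show that both groups were alike, and differences of these sizes remain possible. Against the same 17 controls, the median of the type I interferon-stimulated list was 2.24 in TDP-15, 2.18 in TDP-PBS and 1.84 in TDP-10+12, that of the immediate early genes −0.57, −0.41 and −0.42, and that of the presynaptic genes −0.35, −0.35 and −0.33.

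TDP-15 was also compared with TDP-10+12, the other immunized bigenic group. Again 0 of 18220 genes were called by edgeR and 0 by limma-voom, while DESeq2 called Nos1 and Timp2, and 1244 genes had an unadjusted p-value under 0.05 (6.83%). Nos1, Timp2 and Slc38a10 had the smallest p-values (adjusted p = 0.252 for each). Nos1, the neuronal nitric oxide synthase gene, ranged from 84.7 to 118 CPM in TDP-10+12 and from 57.3 to 90.3 CPM in TDP-15 (log2 fold change −0.42, 95% interval −0.60 to −0.24). Timp2 and Slc38a10 were lower in TDP-15 by 0.31 and 0.21. Itgax was 1.09 higher in TDP-15 on the log2 scale (95% interval 0.42 to 1.77, adjusted p = 0.470) and was not called.

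**Figure D5:**
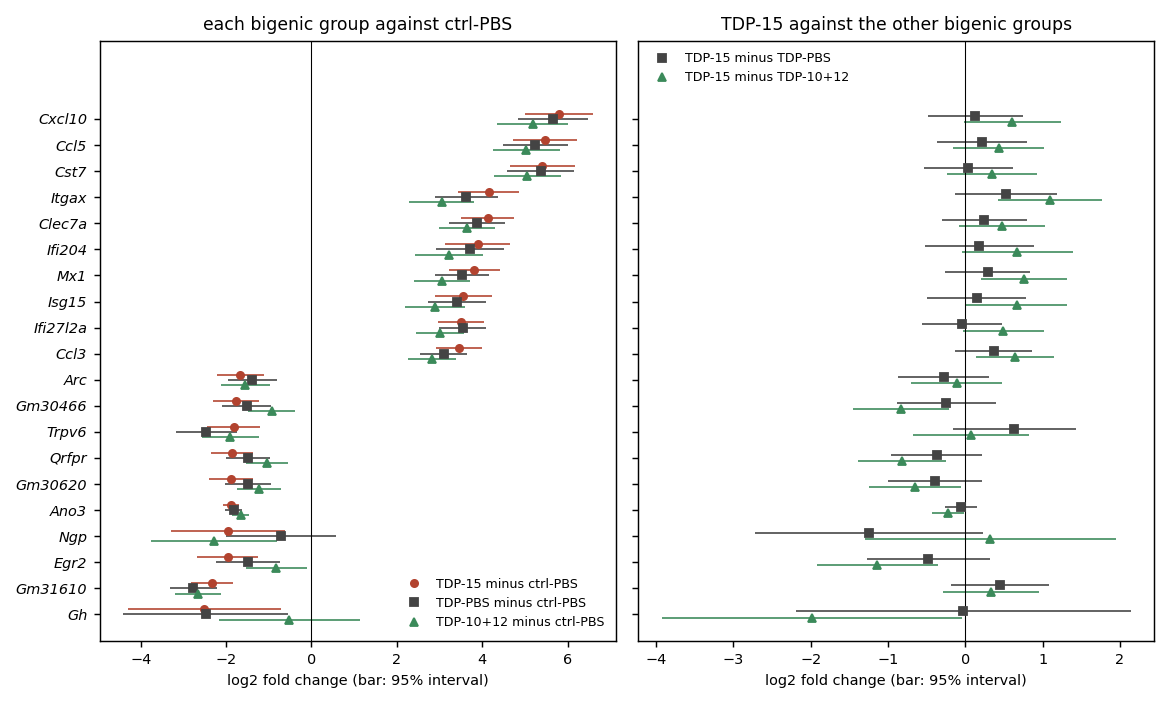
Log2 fold changes with 95% intervals (horizontal axes) of the 10 largest increases and 10 largest decreases of TDP-15 against ctrl-PBS (vertical axis), for each bigenic group against the same 17 ctrl-PBS mice (left) and for TDP-15 against TDP-PBS and TDP-10+12 (right). On the right all 20 intervals against TDP-PBS include 0, and several of those against TDP-10+12, such as Itgax and Egr2, do not, although none of these genes passed the adjusted threshold.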

How the data were processed

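RNA of about 30 mg of neocortex per mouse was sequenced, and per the labels the libraries were made from 200 ng of RNA and read at 100 bp. The deposited table holds raw counts per gene for 49 mice, which the authors aligned and counted against GRCm38.p6 (mm10). The submitters' processing notes name HISAT, HISAT2, Bowtie, Bowtie2 and RSEM without their roles, and the strand setting is not given in the sources used here. Overlapping genes and near-identical copies are uncertain for this reason. Each column was matched to its mouse by name, and 0 columns were left unmatched. Replicates are separate animals. Floors from 3 counts cover counting error only. The 95% intervals use the standard errors of the fitted model, which include the spread between mice.

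Counts were analysed with edgeR 4.0.16 (R 4.3.3). Genes were kept by filterByExpr (minimum count 10, minimum total 15), which left 18220 of 45252, scaled by TMM and fitted in 1 quasi-likelihood model of all 49 mice. The tests were two-sided with Benjamini-Hochberg adjustment over all genes tested and a threshold of 0.05. Group by sex was tested in the 29 mice. limma 3.58.1, DESeq2 1.42.0 and other scalings, filters and covariates were alternatives, and leaving out each of the 29 mice in turn was added after seeing the data. The procedure was tested on simulated data. The comparison, its lists and its tests were chosen with earlier results of these data known. Named were Tardbp, the 10 largest increases and decreases with a mean of at least 1 CPM, the called members with the 2 largest changes in each direction per list, and the 3 smallest p-values where no gene was called. Other genes, including those defining a list, were chosen after their values were seen. Some members of the lists are counted but not reported by name here.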

Additional observations from a re-analysis of the deposited data

How the results depend on the processing

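Of 231 genes examined singly, 208 kept their direction and side of the threshold in every planned setting that tested them, and none reversed. Only 183 of them were tested where each of the mice had to reach 10 counts, and some were not tested in the fit of only both groups compared. The number of genes changed between TDP-15 and ctrl-PBS lay between 7782 and 8911 over the planned settings. Genes over 2-fold numbered 908 with DESeq2, 215 where each of the mice had to reach 10 counts and 1479 without a filter, in place of 520, and genes lower numbered 2807 with library totals in place of 4230. Against TDP-10+12, DESeq2 called 2 genes, the fit of only both groups compared 2 and the fit without a filter 1, and the cause was not tested. Leaving out each of the 29 mice in turn gave 8169 to 8524 changed genes, 4112 to 4510 higher, 3931 to 4213 lower and 477 to 551 over 2-fold. Leaving out each of the 12 TDP-15 mice gave 0 to 0 genes against TDP-PBS and 0 to 0 against TDP-10+12, and mice of those 2 groups were not left out. With library totals the medians of the endoplasmic reticulum list (0.019), myelin (0.079), endothelium and pericytes (0.030), oxidative phosphorylation (0.0093) and ALS-linked genes (0.040) turned positive. Without TDP-15 mouse 126 the median of interferons and their receptors was −0.022. No paired analysis was possible because every mouse is a separate animal and the numbers in the labels are animal numbers that no 2 groups share. Depth limits the genes of few counts, such as most chemokines, interferons and lymphocyte markers.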

Other observations

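Some marker lists that belong to no group above also held called genes. Among dendritic cell markers Zbtb46 and Flt3 had log2 fold changes of −0.36 and −0.25 and Siglech, which microglia also express, of 0.33, while Xcr1 and Clec9a had at most 5 counts in any mouse and were not tested. Of the thalamic markers Prkcd and Rora were higher (0.65 and 0.55) and Ntng1 was lower (−0.46), and of the hippocampal markers Prox1 was higher (0.24) and C1ql2 lower (−1.01). All of these values are from edgeR's quasi-likelihood test of TDP-15 against ctrl-PBS.

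Across the 12 TDP-15 mice, 6 relations between Cxcl10, Cst7, Gfap and Snap25 were computed. Cst7 and Gfap varied together (Pearson's r = 0.80, permutation p = 0.00198, adjusted 0.0119; Spearman's rho = 0.92, permutation p = 7.00e-05, adjusted 0.00042). Without the 2 mice farthest from the median of Cst7 (328 and 346) r was 0.88. The other 5 relations did not pass, and that of Cxcl10 with Cst7 had r = 0.26 (permutation p = 0.424, adjusted 0.636) and rho = 0.11. Both values of each pair come from the same library, and no batch was named within which the relation could be computed again.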
